A study of Mus musculus with 16 samples.

Results

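Mouse embryonic stem (ES) cells grown for 7 days on a monolayer of PA6 cells were compared with PA6 cells grown alone for the same time, both without serum and without added factors (-GFs). The comparison shows which transcripts the culture gains when ES-derived cells are present and which stromal transcripts are lower than in the stroma alone. It rested on 5 of the 16 arrays of the series, 2 of ES/PA6 co-cultures and 3 of PA6 mono-cultures. The genes described are those whose probe was detected on every array of either group, with a detection p-value under 0.05, and there were 13588 of them among the 14829 genes tested over all arrays. PA6 is an established stromal line from mouse bone marrow, and the ES cells were a knock-in line that carries enhanced green fluorescent protein under the promoter of the τ gene, MAPT. One ES line and one stromal line were therefore studied, and the RNA came from the whole well, without separation of ES-derived from stromal cells. The other 11 arrays held the same kinds of culture given a factor for 3 days, which per the labels was FGF2 (20 ng/ml) or BMP4 (10 ng/ml), and they are used here to ask whether the co-culture effect differed with a factor (for BMP4 the published methods give less than the labels). The labels call the replicates biological and give one well of each kind per replicate.

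PA6 cells are known for stromal cell-derived inducing activity, the capacity of this line to drive ES cells toward neural cells in the absence of serum and of bone morphogenetic proteins. ES cells on their way to neurons lose the pluripotency network, pass through a dividing SOX-expressing progenitor and then switch on proneural factors, cytoskeletal proteins of the axon and proteins of the synaptic vesicle. Stromal cells of the marrow secrete collagens, proteoglycans and chemokines such as CXCL12, respond to interferon and can become adipocytes.

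All levels are normalized intensities on the log2 scale, and all changes are co-culture -GFs minus PA6 -GFs on that scale with the standard error (SE) of the fit. The highest value on the 5 arrays was 16.09, so that changes of probes near 16 in one or both cultures may be compressed. The thresholds of the study defined a called gene, namely a limma p below 0.1 after Benjamini-Hochberg adjustment together with a change over 1 in either direction. Intensities of different probes were not set against each other, except that those of cell type markers were summed. Where every array of a group failed to detect the probe of a gene, its change is given as at least so many fold, measured from the lowest signal that those arrays detected. Where only some arrays of a group detected it, the change is a fitted value that includes readings of the background. Between 38.4% and 43.7% of probes were detected on each of the 5 arrays. Across genes the levels correlated at 0.978 between the co-cultures, at 0.981 to 0.987 among PA6 mono-cultures and at 0.706 to 0.729 between both kinds of culture. In whole-well RNA a smaller share of cells of a type cannot be told apart from less RNA per cell, and this holds for every stromal gene below.

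Nearly equal numbers of genes were higher and lower in the co-culture. Of the 13588 genes, 3232 (23.8%) rose and 3198 (23.5%) fell, against 22.3% and 21.8% of all genes tested. Counts for the gene lists below stand against these shares. Together 6430 genes (47.3%) were called, close to the 44.1% over all genes tested, and the median change was 0.015 here and 0.032 over all genes. The levels of both groups did not overlap for 10621 genes, against 74.9% of all genes tested. Changes ran from -6.28 for the chemokine CCL9 to 9.27 for SOX11, a transcription factor of newborn neurons, with a median SE of 0.23. Detection divided the genes into those that one culture adds and those that both share. On all 5 arrays 10141 genes (74.6%) were detected, and of these 1569 rose and 2206 fell. In co-culture alone 1418 genes (10.4%) were detected, and in PA6 alone 653 genes (4.81%), while 1376 were detected on every array of one group and some of the other. The median bound was 3.20-fold for the genes of the co-culture and 2.21-fold for those of PA6, and genes detected in one group alone had to differ, so that their counts describe detection and support nothing more. Detection and bounds refer to the probe that stands for the gene. For 91 of the 1418 genes another probe was detected on some PA6 array, and for 35 of the 653 on some co-culture array. Among genes named below this held on 1 array for SOX11, NIPSNAP1, HES5, MAPT, LMX1A, ESRRB, MKI67, NNAT and SLCO2A1, and on 2 for MDK, TCFAP2A and PTGS1.

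Among the genes detected in co-culture alone, the largest bound was that of SOX11. It read 14.75 and 15.12 in the co-cultures and 5.63, 5.49 and 5.88 in PA6 (probe ILMN_1235647), at least 303-fold higher (adjusted p = 5.58e-13). NDN, necdin, an imprinted gene of postmitotic neurons, read 14.92 and 14.88 against 5.93, 5.75 and 5.71, at least 296-fold. MDK, the heparin-binding growth factor midkine, read 14.56 and 14.39 against 6.61, 6.42 and 5.95, at least 221-fold. These genes were bright on both co-culture arrays and undetected by these probes on all 3 PA6 arrays. CDKN1C, a cell cycle inhibitor that is imprinted, was at least 223-fold higher, CRABP1, a carrier of retinoic acid, at least 187-fold, and EDNRB, the endothelin receptor B, at least 170-fold. FXYD6, a regulator of the sodium pump, IGFBP5, which binds insulin-like growth factors, BEX4, NIPSNAP1, PUNC and EG623230 completed the 12 largest, with bounds of 154-fold to 213-fold.

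Among genes detected on all 5 arrays, the 12 largest rises included 5 histone probes. DPPA5, an RNA-binding protein of pluripotent cells, read 14.80 and 15.07 in the co-cultures and 7.59, 7.65 and 6.97 in PA6, 185-fold higher. CDCA3, PRC1 and KIF22, which act in mitosis, rose by 6.63 ± 0.31, 6.01 ± 0.27 and 6.20 ± 0.30 (SE). MCM5, a subunit of the replicative helicase, rose by 6.27 ± 0.32 and UHRF1, which brings DNA methylation to new strands, by 5.58 ± 0.29 (SE). The 5 histone probes in this group, HIST2H2AB, HIST1H2AG, HIST1H2AN, HIST1H2AH and HIST1H2AK, rose by 5.84 to 6.71, and since these genes are near-identical copies the probe cannot say which of them was measured. SOX21, a partner of SOX2 in neural progenitors, rose by 5.72 ± 0.23 (SE).

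The 12 largest falls of each kind were led by CCL9 and SCARA5. CCL9, a chemokine for myeloid cells, read 12.61, 12.72 and 12.05 in PA6 (probe ILMN_2776603) and 6.13 and 6.22 in the co-cultures, at least 60.6-fold lower (adjusted p = 1.09e-06). S3-12, the lipid droplet protein perilipin 4, was at least 39.2-fold lower, and TNXB, the matrix protein tenascin X, at least 33.3-fold. SCARA5, a ferritin receptor, read 14.61, 14.54 and 14.59 in PA6 and 8.25 and 9.35 in the co-cultures, the largest fall among genes detected on all 5 arrays (55.1-fold). The PA6 arrays lay close together for this gene and the co-cultures farther apart. INMT, a methyltransferase of indoles, SDPR, a protein of caveolae, and ABI3BP, a matrix protein, changed by -5.20 ± 0.56, -5.19 ± 0.37 and -5.09 ± 0.36 (SE). Others of the 12 were the natriuretic peptide receptor NPR3, the ectonucleotidase ENTPD2, the sulfotransferase SULT1A1, xanthine dehydrogenase XDH, the cadherin CDH26, the corepressor TLE2 and the predicted genes LOC100039175 and LOC638301. Genes lost below detection further held SLCO2A1, a prostaglandin transporter, PTGS1, a cyclooxygenase, DIO3, which inactivates thyroid hormone, AGT, angiotensinogen, AOX3, an aldehyde oxidase, the collagen COL27A1, PPARG, TINAG and AIM1, with bounds of 16.4-fold to 27.2-fold.

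**Figure D1:**
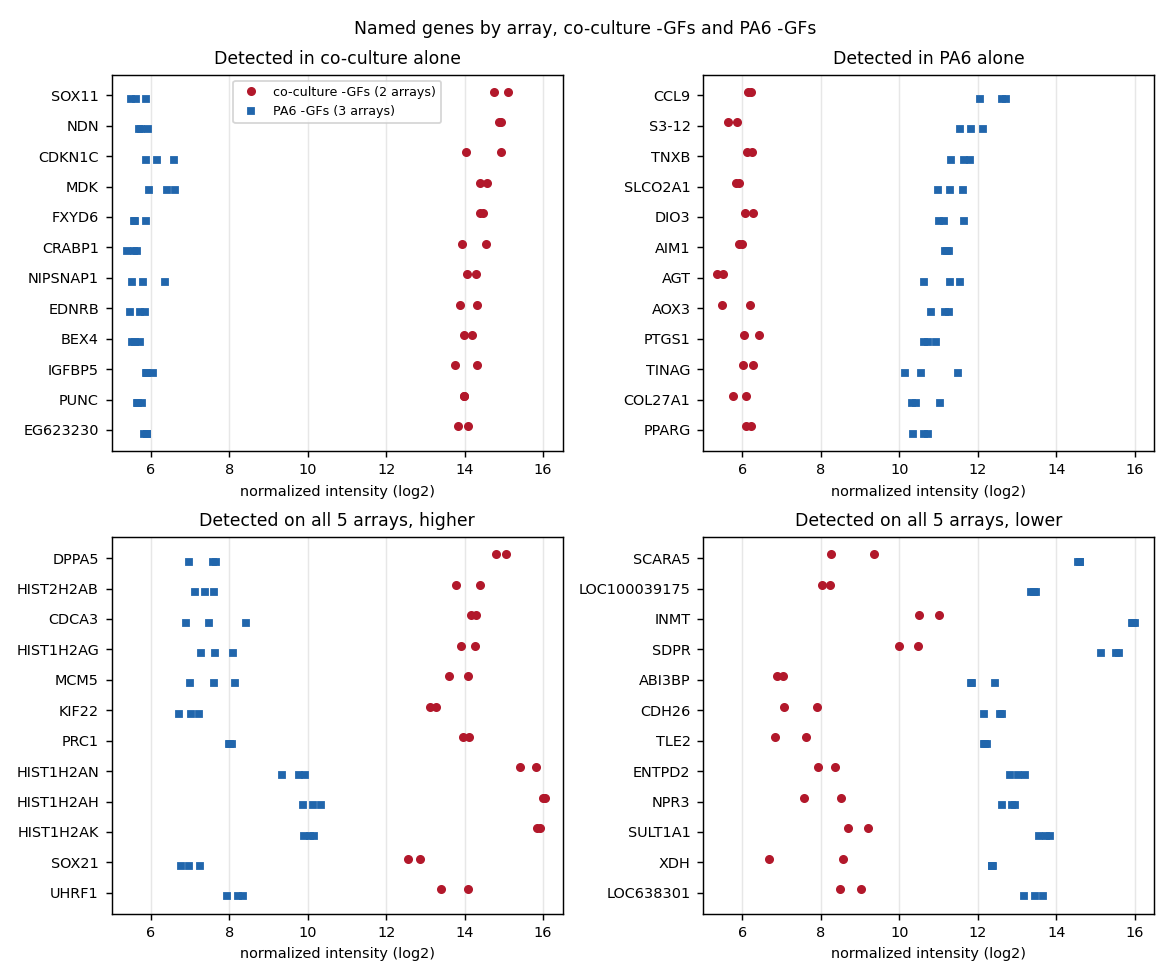
Normalized intensity (log2) of each of the 5 arrays for the 48 genes with the largest bounds or changes, in 4 panels by where they were detected. Circles are the 2 co-culture -GFs arrays and squares the 3 PA6 -GFs arrays, and no gene shown has overlapping groups.

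Cell type markers followed the labels, with gaps. Of 10 markers of neurons, 7 were detected on both co-culture arrays and none on all PA6 arrays, and their summed linear level was 23385 and 46655 in the co-cultures and 574 to 637 in PA6. TUBB3, NEFL and SNAP25 were undetected on every array, so 3 defining genes of neurons are not shown by these probes. Neural progenitor markers summed to 10859 and 11221 against 412 to 829, with PAX6 and MSI1 undetected on all arrays. The 6 pluripotency markers were detected on both co-culture arrays and summed to 37570 and 43072 against 522 to 615. DPPA5, the brightest of them, read 14.80 and 15.07 in the co-cultures and made most of the co-culture sums. The 9 stromal markers were detected on all PA6 arrays and summed to 140264 to 172777 there and to 57371 and 57550 in the co-cultures, where POSTN alone was undetected. DCN, near the top of the scale and not called, read 15.46 and 15.35 in the co-cultures. It made most of the co-culture sums, so these say little about the other stromal markers. Endothelial markers summed to 485 and 574 in the co-cultures and 377 to 820 in PA6, with CDH5, TIE1 and ICAM2 undetected on every array and TEK in the co-cultures. Of the blood markers, PTPRC, TYROBP and HBA-A1 were undetected everywhere, and of the glial ones GFAP and OLIG2.

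Neural progenitor factors were raised in most cases where they could be measured. Of 19 measured genes of this list 14 rose and 2 fell, with a median change of 2.62 against 0.032 for all genes tested. SOX2, which holds the neural progenitor state, read 10.60 and 10.54 in the co-cultures and 5.90, 6.07 and 6.25 in PA6, at least 14.7-fold higher. HES5, a Notch target that keeps progenitors from differentiating, was at least 61.6-fold higher by its probe and NES, the intermediate filament nestin, at least 23.8-fold. ZIC1, POU3F1 and OTX2 were raised by at least 9.66-fold to 17.5-fold. OTX1, by contrast, read 6.92 and 7.84 in the co-cultures and 10.20, 10.93 and 10.12 in PA6, and SLC1A3, a glutamate transporter of radial glia, fell by 1.14 ± 0.26 (SE). The latter was not called without co-culture replicate 1 (-0.90) or PA6 replicate 1 (-0.96). SOX4 was bright in both cultures with a change of -0.35 ± 0.26 (SE). Of the 6 genes of this list detected on all 5 arrays 2 rose and 2 fell.

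Genes of neuronal differentiation and structure rose in most cases. Proneural and neuronal factors rose in 16 of 18 cases (median 3.26), cytoskeletal and axonal genes in 29 of 31 (median 4.11), genes of the synapse in 15 of 24 (median 2.58) and genes of transmitter identity in 8 of 9 (median 4.27). In this order, 11, 16, 10 and 6 genes were detected in co-culture alone, which fixed their direction. Of those detected on all 5 arrays, 2 of 4 proneural genes rose and 1 fell, and 7 of 9 axonal genes rose and 1 fell. Of 8 such synaptic genes 1 rose and 1 fell, and no transmitter gene was detected on all 5. Without co-culture replicate 1 the median of the transmitter genes was 3.07, and without replicate 2 that of the axonal genes was 3.37. INSM1, a zinc finger factor of newborn neurons, read 11.14 and 11.53 against 5.64, 5.50 and 5.32, at least 25.1-fold. STMN2, which binds tubulin in growth cones, read 12.45 and 13.59 against 5.45, 5.41 and 5.76, at least 80.5-fold. DPYSL4 was at least 119-fold higher, MTAP2, the dendritic microtubule protein, at least 70.0-fold, DCX, doublecortin of migrating neurons, at least 41.3-fold and NEFM, the medium neurofilament, at least 39.2-fold. MAPT, whose locus carries the reporter of this ES line, read 10.37 and 11.49 against 5.82, 5.39 and 5.43, at least 18.9-fold higher. The probes that stand for these genes were undetected on every PA6 array, while another probe of MAPT was detected on 1. NRP1, a semaphorin receptor that stroma also makes, was the only one of the axonal list to fall, from 14.90, 14.37 and 14.89 in PA6 to 12.02 and 12.57, and DPYSL2 changed by 0.57 ± 0.18 (SE) without a call. For MTAP1B and ROBO1, both called higher, another probe of the gene changed by -0.093 and -0.027.

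Genes of several transmitter systems were detected in co-culture alone. SLC17A6, the vesicular glutamate transporter, read 11.26 and 12.42 and was at least 35.5-fold higher, while SLC32A1, the vesicular transporter of inhibitory transmitters, read 10.50 and 11.54 and was at least 20.1-fold higher. SST, somatostatin, was at least 30.2-fold, GAD1, which makes GABA, at least 2.86-fold and DDC, which makes dopamine and serotonin from their precursors, at least 9.33-fold higher. SLC18A3, the acetylcholine transporter, stood near the detection level with a bound of 1.11-fold. Among vesicle proteins SCG3, SYT1 and CPLX1 were higher by at least 18.3-fold, 12.5-fold and 10.2-fold, whereas VAMP2, STX1A, RAB3A and PCLO, detected on all 5 arrays, were not called, RAB3A excepting the fit without co-culture replicate 1 (1.16). GRIA3, a glutamate receptor subunit, fell by 2.03 ± 0.42 (SE).

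The co-cultures differed from each other in the neuronal genes and, the other way, in cell cycle genes. Co-culture replicate 2 read higher than replicate 1 for 30 of 31 axonal genes, 21 of 24 synaptic genes, 16 of 18 proneural genes and 9 of 9 transmitter genes, by medians of 0.79, 0.87, 0.62 and 1.03. For cell cycle genes replicate 1 was the higher in 42 of 46 (median difference -0.38), while for all 13588 genes replicate 2 was higher in 6940 and the median difference was 0.0099. Stromal matrix genes also read higher in replicate 2, in 35 of 41 cases. These are differences between 2 arrays and carry no test.

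Regional genes covered a broad span of the neural axis. GBX2, which sets the border of midbrain and hindbrain, read 12.22 and 12.38 against 5.73, 5.86 and 6.43, at least 48.7-fold higher. EN2 of the midbrain and hindbrain was at least 6.08-fold and LMX1A of the roof and floor plates at least 1.47-fold higher. DBX1 and NKX6-1, which mark intermediate and ventral domains of the cord and hindbrain, were at least 24.5-fold and 11.0-fold higher, LHX1 of interneurons at least 16.7-fold and OLIG3 of dorsal progenitors at least 2.51-fold. EN1 and GATA2 fell, EN1 from 13.04, 13.01 and 13.13 in PA6 to 9.63 and 9.60 in the co-cultures. In the list for forebrain and midbrain 7 of 11 rose and 3 fell (median 2.13, and 1.54 without co-culture replicate 1), and in that for hindbrain and cord 10 of 15 rose and 2 fell (median 1.63). Of the 2 genes of the former list detected on all 5 arrays 1 rose and 1 fell. Of the 5 such genes of the latter list 2 rose and 2 fell.

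HOX genes, whose order along the chromosome follows their order along the body, moved both ways. Of 17 measured 7 rose and 5 fell. HOXB1 read 10.88 and 9.08 in the co-cultures and was undetected in PA6, at least 9.79-fold higher, HOXB7 at least 18.9-fold and HOXD3 at least 7.00-fold. HOXB2 rose by 2.06 ± 0.18 and HOXA2 by 1.20 ± 0.23 (SE), and HOXB5 by 2.42 ± 0.99 (SE) on 2 arrays that read 7.11 and 10.44. The call of HOXA2 was lost under median scaling (0.94). That of HOXB5 was lost without co-culture replicate 2 (0.75) and without PA6 replicate 3 (2.18). HOXA5 changed by -3.53 ± 0.32 and HOXD8 by -3.23 ± 0.35 (SE), and HOXD9 was undetected in the co-cultures and at least 7.74-fold lower. HOXA7 fell as well, and so did HOXA4 except without co-culture replicate 1 (-1.06), and none of the 6 measured genes of cluster B was called lower.

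**Figure D2:**
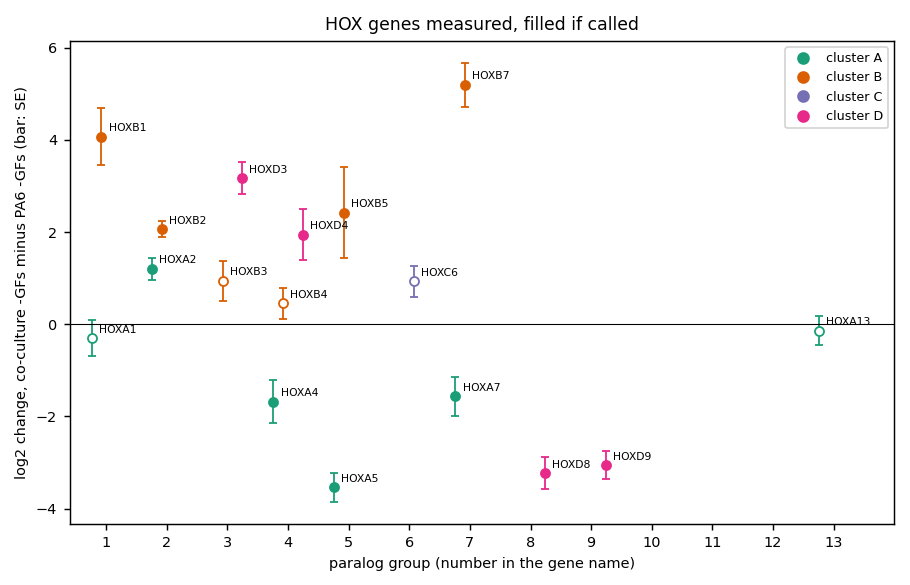
Change of the 17 measured HOX genes (log2, co-culture -GFs minus PA6 -GFs, bars are SE) against the number in the gene name, coloured by cluster, with filled points for called genes. Genes of cluster B lie above 0, among them HOXB7 at 5.20, and HOXA5, HOXD8 and HOXD9 lie lowest.

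Most pluripotency genes were detected in the co-culture on day 7. Of 23 measured 19 rose and 3 fell (median 3.95). Of these 23, 14 were detected in co-culture alone, which fixed their direction. Of the 5 detected on all 5 arrays 1 rose and 3 fell, and the median was -1.85 when only such genes were kept. POU5F1, which encodes OCT4, read 10.72 and 10.40 in the co-cultures and 6.79, 5.73 and 6.74 in PA6, a rise of 4.14 ± 0.42 (SE, adjusted p = 1.41e-06). NANOG read 12.10 and 11.86 against 5.66, 6.85 and 7.53, a rise of 5.30 ± 0.42 (SE). SALL4, DPPA4, FBXO15 and ESRRB were higher by at least 45.5-fold, 29.8-fold, 29.8-fold and 16.6-fold, and LEFTY1, an inhibitor of Nodal, by at least 23.3-fold. The reference level of undifferentiated ES cells was not analysed here. KLF4, KLF2 and TBX3, which stroma expresses as well, fell, KLF4 from 10.02, 10.17 and 11.70 in PA6 to 6.97 and 7.06 in the co-cultures. DNMT3L was not called (0.12 ± 0.44, SE).

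**Figure D3:**
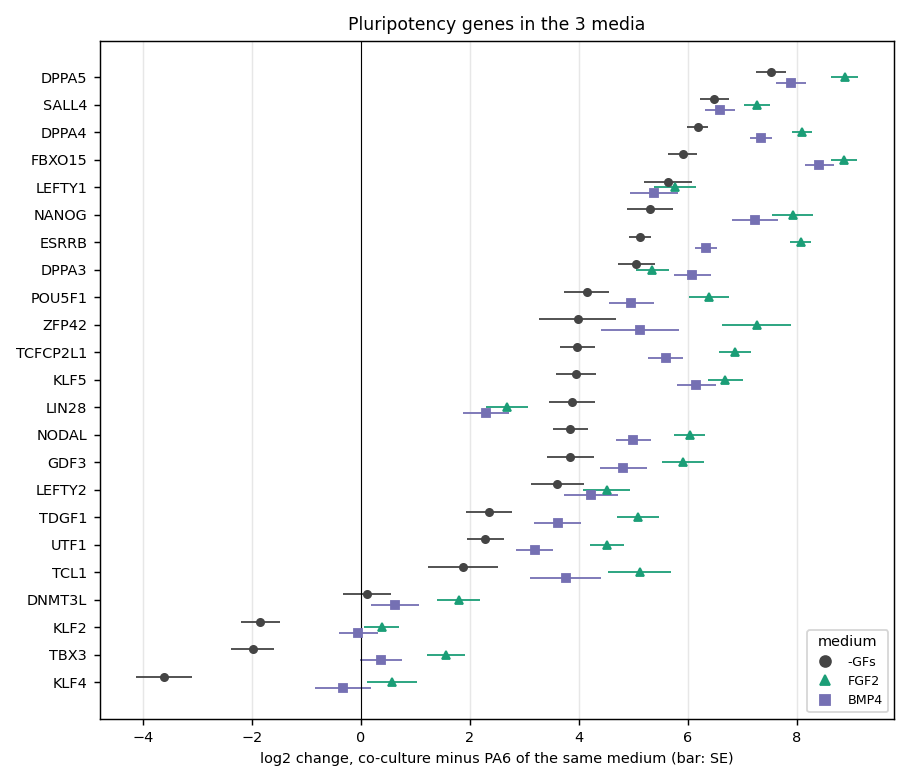
Change of the 23 measured pluripotency genes between co-culture and PA6 of the same medium (log2, bars are SE), without factor (circles), with FGF2 (triangles) and with BMP4 (squares). KLF4 is at -3.61 without a factor, and for 21 of the 23 genes the FGF2 value lies farthest to the right.

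Cell cycle genes rose almost as a whole. Of 46 measured 42 rose and none fell (median 4.13), and 22 of the 25 detected on all 5 arrays rose. BIRC5, survivin, read 13.77 and 13.67 against 6.28, 6.29 and 6.96, a fitted rise of 7.21 ± 0.38 (SE). The PA6 readings of 6.28 and 6.29 lay below the lowest signals detected on their arrays (6.64 and 6.84). CCNB1, the cyclin of mitotic entry, and TOP2A, which untangles DNA, rose by 7.03 ± 0.33 and 6.81 ± 0.38 (SE). PLK1, a mitotic kinase, read 13.34 and 12.64 against 6.81, 7.61 and 7.92, and CDC20, which activates the anaphase-promoting complex, 13.82 and 13.31 against 8.26, 8.01 and 8.39. MKI67, the marker of dividing cells, was at least 33.7-fold higher. The D cyclins stood apart, with CCND2 at 0.18 ± 0.20 and CCND3 at -0.096 ± 0.19 (SE), both bright in both cultures, and E2F1 at 0.38 ± 0.16 (SE). BUB1 was the other one of the 4 not called, except without PA6 replicate 1 (1.28).

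Inhibitors of the cycle behaved otherwise. CDKN1C was detected in co-culture alone, while CDKN2C, CDKN2A, from which the senescence inhibitor p16 arises, and CDKN1B changed by -3.20 ± 0.35, -2.05 ± 0.30 and -1.60 ± 0.40 (SE). CDKN1A, which encodes p21, changed by 0.25 ± 0.29 and TRP53 by 0.082 ± 0.22 (SE), neither called. Of this list of 22 genes 3 rose and 7 fell.

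Promoters of the cell cycle list were searched for letters that the choice of the list did not use. The CHR element TTTGAA, known from genes switched on late in the cycle, lay on either strand within the window of 250 bases before to 50 after the start in 15 of 38 genes of the list with a promoter in the RefSeq table (39.5%), and in 20.2% of all promoters of that table. The CCAAT box lay in 27 of 38 (71.1%) and in 41.1% of all promoters. It was not particular to this list, since it lay in 11 of 12 promoters of the cholesterol list (91.7%). The letters TCACNCCAC, the core of the sterol response element, lay in 0 of these 12 and in 1.44% of all promoters. Such matches describe letters and not bound sites. The windows of PLK1 (chr7:122159185-122159484, plus strand) and CDC20 (chr4:118437294-118437593, minus strand) in GRCm38.p6 are shown because both genes were detected on all 5 arrays and their windows hold both elements, which are in capitals.
PLK1: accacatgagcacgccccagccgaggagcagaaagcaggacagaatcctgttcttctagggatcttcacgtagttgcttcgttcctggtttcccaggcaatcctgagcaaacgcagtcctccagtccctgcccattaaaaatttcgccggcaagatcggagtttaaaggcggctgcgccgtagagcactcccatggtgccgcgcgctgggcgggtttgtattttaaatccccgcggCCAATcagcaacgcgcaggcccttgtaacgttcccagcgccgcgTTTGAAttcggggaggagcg
CDC20: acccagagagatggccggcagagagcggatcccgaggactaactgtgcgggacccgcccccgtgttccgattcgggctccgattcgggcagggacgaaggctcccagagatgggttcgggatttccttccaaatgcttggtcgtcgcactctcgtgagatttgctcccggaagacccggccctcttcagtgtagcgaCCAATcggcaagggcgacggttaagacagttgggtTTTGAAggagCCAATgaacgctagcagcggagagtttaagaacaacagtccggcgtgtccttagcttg

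Regulators of chromatin rose in many cases. Of 22 genes of DNA methylation and Polycomb complexes 15 rose and none fell (median 1.53). EZH2, the Polycomb methyltransferase, read 13.24 and 13.00 against 9.98, 10.24 and 9.98, a rise of 3.05 ± 0.18 (SE). DNMT3B rose by 3.18 ± 0.53, DNMT1 by 2.37 ± 0.22 and HMGB2 by 4.52 ± 0.34 (SE), and CHD7, a remodeller needed in neural crest, was at least 54.9-fold higher.

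Transcripts of sugar and sterol metabolism rose in most cases too. SLC2A3, the neuronal glucose transporter, read 14.77 and 14.18 against 6.74, 5.81 and 5.99, a rise of 8.30 ± 0.32 (SE). Glycolytic enzymes rose by less, ENO1 by 3.66 ± 0.22, PGK1 by 2.55 ± 0.24, GAPDH by 2.13 ± 0.21 and LDHA by 2.02 ± 0.24 (SE). PDK1, which keeps pyruvate from the mitochondrion, and EGLN3, a hypoxia-induced hydroxylase, were at least 17.7-fold and 12.2-fold higher, but ADM and NDRG1, also induced by hypoxia, changed by -3.46 ± 0.35 and -3.32 ± 0.36 (SE) and VEGFA was not called (-0.33 ± 0.22, SE). In the list of glycolysis and hypoxia 15 of 24 rose and 3 fell (median 1.80). Genes of cholesterol synthesis rose in 17 of 19 cases with none lower (median 1.87). FDPS, which makes farnesyl pyrophosphate, read 14.25 and 13.96 against 11.33, 11.20 and 10.99, a rise of 2.93 ± 0.33 (SE), and MVD rose by 2.66 ± 0.37 (SE). DHCR7 and INSIG1 were the 2 not called, and DHCR7 was called without PA6 replicate 3 (1.31).

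Imprinted genes, expressed from one parental copy, went both ways. Of 21 measured 12 rose and 3 fell (median 1.20). NNAT, neuronatin, read 11.95 and 12.72 against 5.54, 5.59 and 5.60. MKRN3 was at least 27.1-fold and PEG3 at least 22.9-fold higher, and MEST rose from 9.46, 8.26 and 7.90 to 14.14 and 13.42. DLK1, known from preadipocytes, read 15.76, 15.79 and 15.79 in PA6 and 13.07 and 13.59 in the co-cultures, and DIO3, its neighbour in the same imprinted region, was at least 26.4-fold lower. IGF2 was bright in both cultures (-0.099 ± 0.33, SE) and was not called.

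Genes of other lineages were detected as well. Epithelial genes rose in 10 of 17 cases (median 2.28), with KRT8 and KRT18, the keratins of simple epithelia, at least 13.2-fold and 6.26-fold higher. Of these 17, 11 were detected in co-culture alone, which fixed their direction. Of the 2 detected on all 5 arrays none rose and 1 fell. CDH1, E-cadherin, read 9.66 and 8.63 against 6.87, 7.72 and 6.00. TCFAP2B and TCFAP2A, factors of neural crest and surface ectoderm, were at least 28.3-fold and 8.30-fold higher. Of 11 neural crest factors 5 rose and 6 fell, the latter SNAI2, SNAI1, ETS1, TWIST1, MSX1 and SOX9. SOX9 was not called without co-culture replicate 1 (-0.95). LAMA1, a laminin chain of basement membranes, was at least 10.9-fold higher, while GATA6 and FOXF1A changed by -3.61 ± 0.22 and -3.96 ± 0.22 (SE). Myelin basic protein, MBP, was at least 6.15-fold higher. In the endothelial list 7 of 14 rose and 4 fell, with EGFL7 up by 3.84 ± 0.31 (SE), PECAM1 at least 1.62-fold higher and CD34 and FLT1 at -4.26 ± 0.15 and -2.89 ± 0.34 (SE). In co-culture alone 7 of the 14 were detected, and of the 4 detected on all 5 arrays 1 rose and 3 fell. The call of PECAM1 was lost without background correction (0.93). With CDH5, TIE1 and ICAM2 undetected, these changes do not rest on the defining markers of endothelium.

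Stromal matrix genes were lower in the co-culture, though not evenly. Of 41 measured 29 fell and 1 rose (median -1.99), and 23 of the 34 detected on all 5 arrays fell. COL1A1 read 13.75, 13.72 and 14.71 in PA6 and 11.23 and 11.93 in the co-cultures, a change of -2.48 ± 0.48 (SE). COL1A2, COL3A1 and the microfibrillar chains COL6A1, COL6A2 and COL6A3 fell, with changes of -3.34 to -2.62. FN1, fibronectin, changed by -2.97 ± 0.27, THBS2, a thrombospondin, by -3.34 ± 0.21 and the proteoglycan FMOD by -3.52 ± 0.39 (SE), and COL15A1 by -4.01 ± 0.27 (SE). DCN, decorin, read 15.57, 16.03 and 16.08 in PA6 and 15.46 and 15.35 in the co-cultures, a change of -0.49 ± 0.19 (SE) without a call. MGP and BGN also stayed within 2-fold, at -0.58 ± 0.17 and -0.75 ± 0.16 (SE), but these 3 probes lie near the top of the scale. FBLN1 at 0.023 ± 0.30, COL12A1 at -0.25 ± 0.32 and ELN at 0.63 ± 0.42 (SE), which lie lower on the scale, were not called either, although ELN was called without co-culture replicate 1 (1.14). MFAP4, a protein of elastic fibres, was the gene that rose, from 6.89, 6.55 and 6.76 to 9.18 and 9.78.

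**Figure D4:**
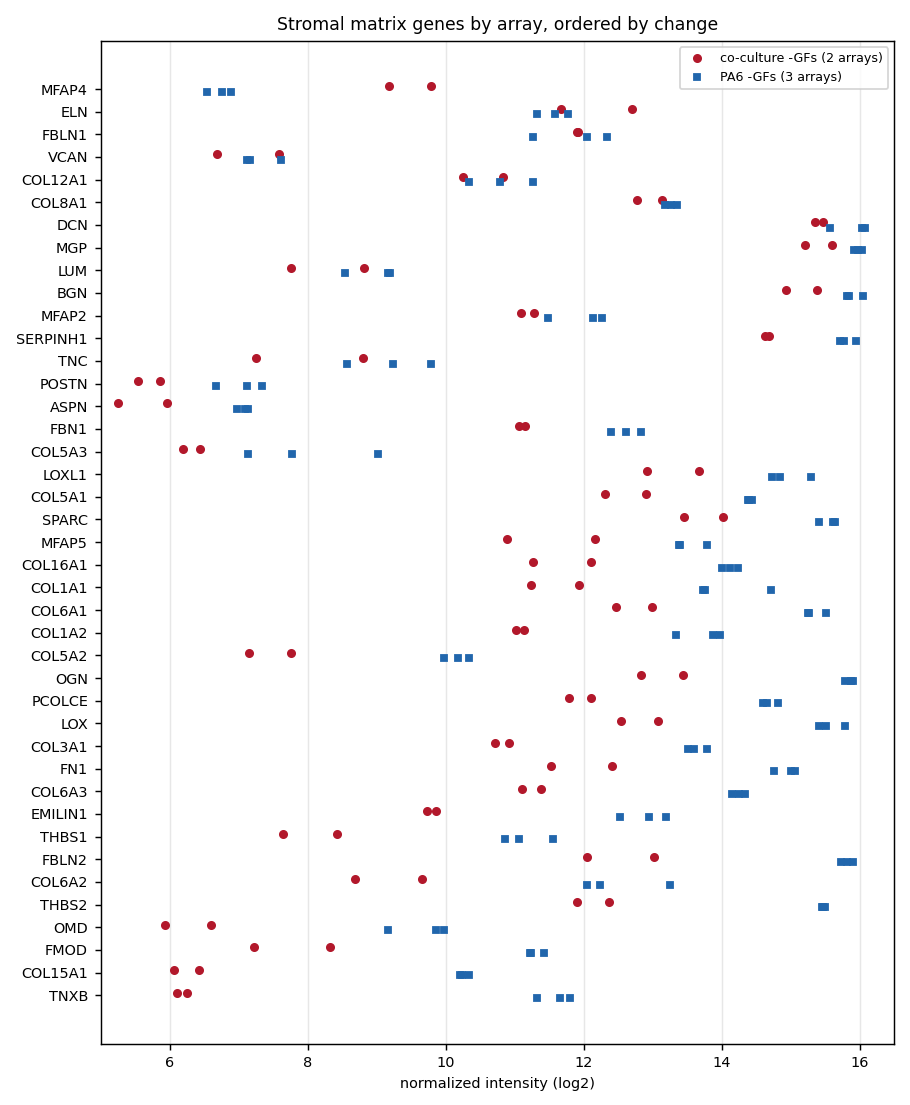
Normalized intensity (log2) of the 41 measured stromal matrix genes on each of the 5 arrays, ordered by change from the highest to the lowest. The groups overlap for 6 genes, among them ELN, FBLN1, VCAN and COL12A1, and for most others the co-culture arrays (circles) lie left of the PA6 arrays (squares).

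Factors and receptors of mesenchyme fell in 27 of 32 cases with 1 rise (median -2.21). TWIST2 read 13.05, 13.04 and 12.70 in PA6 and 6.27 and 8.10 in the co-cultures, a change of -5.74 ± 0.46 (SE). SNAI2 changed by -4.51 ± 0.16, the receptors PDGFRA and PDGFRB by -3.75 ± 0.25 and -3.49 ± 0.34 and VCAM1, an adhesion molecule of marrow stroma, by -2.82 ± 0.19 (SE). FOXC2 and DDR2 were undetected in the co-cultures and at least 8.68-fold and 5.69-fold lower. VIM, PRRX1, MEOX1 and MCAM were the 4 not called, VIM with a change of -0.93 ± 0.14 (SE). Without co-culture replicate 2 both VIM (-1.05) and PRRX1 (-1.39) were called, and PRRX1 also without PA6 replicate 3 (-1.01). Under median scaling both were called as well (-1.16 and -1.04). MEOX1 was called higher without PA6 replicate 1 (1.48).

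Matrix proteases, their inhibitors and contractile genes moved the same way. Of the proteases and inhibitors 16 of 24 fell and 3 rose (median -1.94). MMP2 read 16.01, 16.04 and 16.04 in PA6 and 13.11 and 13.74 in the co-cultures, and ADAMTS2, which trims procollagen, fell by 3.91 ± 0.27 (SE). TIMP3 was not called (0.0089 ± 0.18, SE), while TIMP2 fell by 3.04 ± 0.26 (SE). Contractile genes fell in 12 of 19 cases and rose in 2 (median -1.60), with MYL9, a myosin light chain, at -3.06 ± 0.21 and ACTA2, smooth muscle actin, at -1.60 ± 0.50 (SE). ACTA2 was not called without co-culture replicate 1 (-1.02). TPM2 fell by 2.28 ± 0.24 (SE), but its other probe changed by 2.41.

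Adipocyte genes differed between arrays of the same group. PPARG, the master regulator of fat cells, read 10.63, 10.73 and 10.36 in PA6 and was undetected in the co-cultures, at least 16.4-fold lower, and CEBPA was at least 6.35-fold lower. ADIPOQ, adiponectin, read 12.69, 8.04 and 8.89 on the PA6 arrays and CFD, adipsin, 12.94, 8.63 and 8.33, so that replicate 1 was high and the others were not. The co-cultures read 8.68 and 5.94 for ADIPOQ and 9.35 and 6.20 for CFD, and neither gene was called. ADIPOQ was called lower without PA6 replicate 2 (-3.47) and under median scaling (-2.77), and both ADIPOQ (-3.43) and CFD (-3.03) were called when column runs were blocked. LPL, lipoprotein lipase, read 10.99, 7.60 and 7.47 in PA6 and 11.55 and 10.67 in the co-cultures and was called higher (2.42 ± 1.08, SE). Its groups overlapped, and the call was lost without either co-culture replicate (2.00 and 2.87) and without PA6 replicate 2 (1.87) or 3 (1.80), as it was when dim probes were not filtered out. Of 21 genes 8 fell and 2 rose (median -0.92), and FABP4 and PLIN1, defining genes of mature fat cells, were undetected on every array.

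Secreted signals of stroma were among the deepest falls. Chemokines, cytokines and growth factors fell in 15 of 20 cases and rose in 1 (median -2.71). CXCL12, which retains blood stem cells in the marrow, read 16.04, 15.99 and 15.82 in PA6 and 12.25 and 12.88 in the co-cultures, a change of -3.39 ± 0.23 (SE). CCL7 changed by -4.49 ± 0.48, the growth factors FGF7 and HGF by -4.26 ± 0.31 and -4.17 ± 0.37 and CSF1, which sustains macrophages, by -3.40 ± 0.36 (SE). CTGF rose instead, by 2.18 ± 0.26 (SE). Angiogenic ligands fell in 13 of 19 cases and rose in 2, with FIGF, or VEGF-D, at -3.03 ± 0.31 (SE), while VEGFC was at least 4.36-fold higher. Complement and acute phase genes fell in 12 of 15 cases with none higher (median -2.72), with C1S at -3.49 ± 0.18 and C3 at -2.07 ± 0.42 (SE). SAA3, C2 and CFB were the 3 not called, and CFB was called without co-culture replicate 2 (-1.40) or PA6 replicate 3 (-1.11) and under median scaling (-1.11).

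Genes of antigen presentation and of the interferon response fell in 28 of 32 cases, and none rose (median -2.16). IFIT3, an antiviral protein, read 12.33, 11.94 and 11.67 in PA6 and 7.54 and 8.28 in the co-cultures, a change of -4.07 ± 0.44 (SE). USP18 and OASL2 changed by -3.75 ± 0.24 and -3.62 ± 0.33 (SE), and IGTP, an interferon-induced GTPase, by -2.71 ± 0.22 (SE). B2M, the light chain of class I molecules, read 15.87, 15.81 and 15.78 in PA6 and 13.42 and 13.45 in the co-cultures, and the peptide transporter TAP2 fell by 2.78 ± 0.28 (SE). H2-K1 was not called (-0.14 ± 0.66, SE), and class I genes are alike enough that a probe may read several of them. The letters GAAANNGAA, the core of the interferon-stimulated response element, lay on either strand in 10 of 25 promoter windows of this list (40%) and in 9.76% of all promoters. The windows of IFIT3 (chr19:34583279-34583578, plus strand) and IGTP (chr11:58199306-58199605, plus strand) in GRCm38.p6 are shown as one with 3 matches and one with 1, with the matches in capitals.
IFIT3: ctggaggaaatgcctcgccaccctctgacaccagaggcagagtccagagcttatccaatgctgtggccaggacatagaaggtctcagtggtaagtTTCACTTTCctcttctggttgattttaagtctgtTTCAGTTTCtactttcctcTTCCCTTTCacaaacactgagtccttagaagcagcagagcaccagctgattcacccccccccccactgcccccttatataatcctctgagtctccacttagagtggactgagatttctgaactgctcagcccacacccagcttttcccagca
IGTP: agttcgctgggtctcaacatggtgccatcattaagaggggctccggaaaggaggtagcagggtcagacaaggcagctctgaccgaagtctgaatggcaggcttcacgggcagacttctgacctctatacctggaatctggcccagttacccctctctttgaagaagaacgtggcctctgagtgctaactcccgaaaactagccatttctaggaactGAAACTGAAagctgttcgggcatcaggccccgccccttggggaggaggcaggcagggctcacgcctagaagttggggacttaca

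Signalling pathways changed in both directions, with receptors and ligands divided between the cultures. Notch genes rose in 10 of 19 cases and fell in 5. NRARP, a feedback inhibitor of Notch, was at least 72.4-fold higher, and the ligand DLL1 rose by 2.84 ± 0.28 (SE), while JAG1, HEY2 and DLK1 fell and NOTCH1 and HES1 were not called. Of the WNT genes 11 rose and 11 fell among 27. WNT7B and WNT7A, ligands of the neural tube, were at least 32.5-fold and 9.39-fold higher and AXIN2, a target of the pathway, rose by 3.67 ± 0.28 (SE), while RSPO3, which strengthens WNT signals, changed by -3.85 ± 0.27 and SFRP1 by -1.73 ± 0.24 (SE). BMP genes fell in 9 of 20 cases and rose in 4, BMP4 from 12.11, 12.02 and 11.48 in PA6 to 8.47 and 9.53, a change of -2.87 ± 0.33 (SE). Targets of the pathway, ID1 and ID2, rose by 2.71 ± 0.58 and 1.90 ± 0.33 (SE), and BMPR1B was at least 10.7-fold higher. CHRD, the BMP antagonist chordin, was not called (-0.0068 ± 0.36, SE).

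TGFB genes fell in 6 of 18 cases (33.3%) and rose in 3 (16.7%), against 21.8% and 22.3% of all genes tested. TGFB1 read 9.49, 9.44 and 10.30 in PA6 and 7.75 and 7.62 in the co-cultures, a change of -2.06 ± 0.29 (SE), with the receptors TGFBR2 and TGFBR3 at -2.94 ± 0.25 and -3.81 ± 0.28 and TGFBR1 at 1.38 ± 0.18 (SE). FGF genes rose in 9 of 17 cases and fell in 5. FGF15 and FGF8 were at least 8.28-fold and 2.34-fold higher, and the feedback genes DUSP6 and ETV4, which follow FGF signalling, were raised by 2.74 ± 0.30 (SE) and by at least 4.65-fold. FGFR1 fell by 3.23 ± 0.37 (SE). SHH, the ligand of the floor plate, read 9.98 and 9.92 in the co-cultures and was at least 9.58-fold higher, and its target PTCH1 rose by 1.09 ± 0.32, while the coreceptor CDON fell by 3.37 ± 0.22 (SE). The call of PTCH1 was lost without co-culture replicate 1 (0.98) or PA6 replicate 3 (0.87), under median scaling (0.94), without background correction (0.91) and with the replicate block (0.92). Among retinoic acid genes CRABP1 and CRABP2 were at least 187-fold and 116-fold higher and the degrading enzyme CYP26A1 at least 2.33-fold, while ALDH1A1, which makes retinoic acid, and its receptor RARG changed by -2.01 ± 0.54 and -2.30 ± 0.25 (SE).

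Of 14 factors linked to neural induction by PA6, 4 rose and 4 fell (28.6% each), against 22.3% and 21.8% of all genes tested. MDK, SHH, SFRP2 and FGF8 were the risers, SFRP2 from 7.31, 7.63 and 7.38 to 12.06 and 11.65. PTN, pleiotrophin, was bright in both cultures, with 15.44, 14.88 and 14.59 in PA6 and 14.65 and 14.29 in the co-cultures, and was not called (-0.50 ± 0.25, SE). SFRP1, WNT5A, CXCL12 and HGF fell, WNT5A losing its call without co-culture replicate 1 (-0.82) or PA6 replicate 2 (-0.98) and when column runs were blocked (-0.94).

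**Figure D5:**
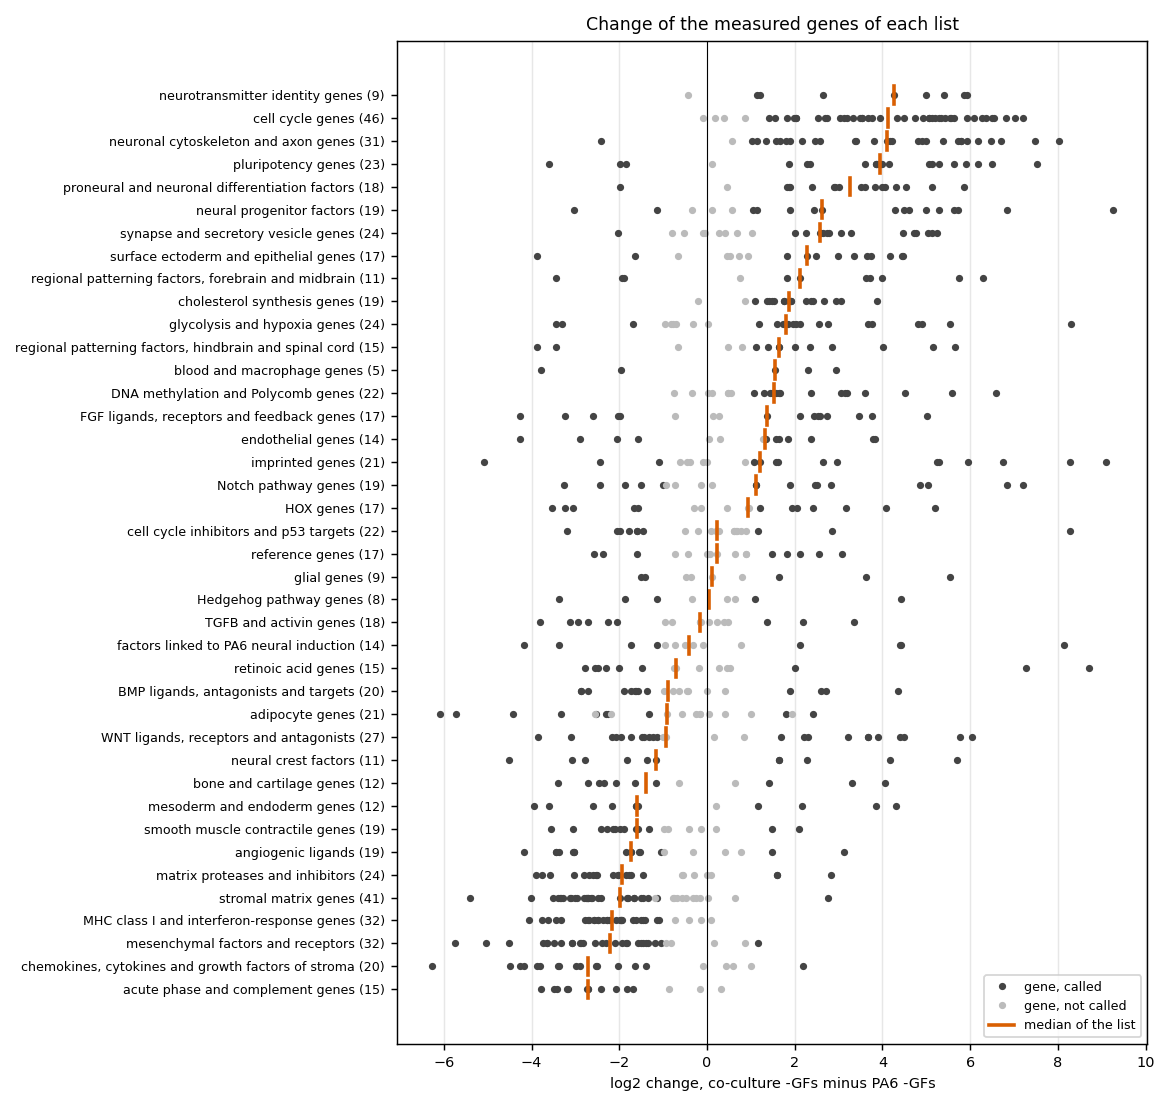
Change of each measured gene (log2, co-culture -GFs minus PA6 -GFs) in the 40 gene lists, with the number of measured genes in brackets, dark points for called genes, light points for the others and a bar at the median. Neuronal, cell cycle and pluripotency lists lie at the top, and lists of matrix, mesenchyme, complement, interferon and chemokine genes at the bottom.

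Genes often used as references did not all stay level. EEF1A1, RPS29 and PPIA changed by -0.0035 ± 0.11, 0.027 ± 0.12 and 0.069 ± 0.12 (SE), near the top of the scale, and ACTB by -0.44 ± 0.16 and TBP by 0.88 ± 0.14 (SE). GAPDH, PGK1 and TFRC rose and GUSB, B2M and HPRT1 fell, HPRT1 from 12.84, 12.90 and 13.49 in PA6 to 10.08 and 10.92, a change of -2.57 ± 0.28 (SE). Of 17 genes 5 rose and 3 fell (median 0.23).

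The same comparison within media that held a factor, on 11 other arrays, gave much of the same list. Of the 3232 genes that rose without a factor, 2563 (79.3%) also rose in co-culture with FGF2 and 2533 (78.4%) with BMP4. Of the 3198 that fell, 2596 (81.2%) fell with FGF2 and 2495 (78.0%) with BMP4, and 12 genes were called the other way with each factor. The difference of the co-culture effect itself was tested by an interaction term. It was called for 948 genes with FGF2 against 7.90% of all genes tested, and for 462 with BMP4 against 4.23%, and 215 genes were in both. Both differences subtract the same -GFs arrays, so the genes in both are not independent findings. Scaling by the median left 522 differences with FGF2 and 395 with BMP4. Of the 948 differences with FGF2, 513 were positive, and of the 462 with BMP4, 225. With FGF2, 17 of the 23 pluripotency genes and 4 of the 31 axonal genes differed, with BMP4 8 and 11. The co-culture effect on POU5F1 was higher by 2.24 with FGF2 (adjusted p = 0.0304), and that of STMN2 differed by -1.50 with BMP4 (adjusted p = 0.0552). STMN2 was undetected in PA6 of both media, so that its difference rests on the co-culture arrays.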

How the data were processed

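Total RNA of each well was labelled as biotin cRNA and hybridised to mouse whole-genome bead arrays. The authors deposited a table of 45281 probes with an intensity and a detection p-value per array, exported with GenomeStudio 2011.01 per the submitters' processing notes, without a stated normalization. Background was estimated through the detection p-values, and the 16 arrays were then quantile normalized with an offset of 16 on the log2 scale (neqc, limma 3.58.1, R 4.3.3). Quantile normalization gives every array one distribution, so that a difference in total RNA is not visible. A probe was kept if detected (p under 0.05) on every array of any of the 6 groups, and a gene with several was represented by the brightest on average. Limma was fitted over the 6 groups, so that groups of 2 and 3 arrays share one estimate of the spread, and a gene was called at an adjusted p under 0.1 and a log2 change over 1. Symbols are those of the deposited table, and 11475 of the 13588 matched a RefSeq symbol or synonym. The fit was tested on simulated data.

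Genes were named by size: the 12 largest changes each way among genes detected on all 5 arrays without overlap, the 12 largest bounds each way, textbook examples and the largest changes of each list, and the 5 largest differences each way with each factor. ADIPOQ, CFD, LPL and other single genes given for their spread or missing call were chosen after their values were seen. The members and the 40 lists were chosen with earlier results of these data known. Alternatives covered the normalization, background, filters, choice of probe, variance prior, replicate block and leaving out each array, and a block for runs of columns was chosen after seeing the data. Promoter windows are from RefSeq (GRCm38.p6).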

Additional observations from a re-analysis of the deposited data

Results flagged for a closer look

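The co-culture effect, co-culture minus PA6 in the same medium, differed between media for 948 genes with FGF2 and for 462 with BMP4 by the interaction term of the limma fit. All values here are differences of that effect on the log2 scale, factor minus -GFs, unless called a level. Where a culture did not detect a gene its level is that of the background, and the difference is then a fitted value and no bound.

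With FGF2 the largest positive differences were those of AU018829 (4.28), LOC212386 (4.24), KLF4 (4.19), LAPTM5 (4.12) and LOC100047200 (4.08). KLF4, a pluripotency factor, changed by -3.61 without a factor and by 0.58 with FGF2 (adjusted p of the difference 0.00302). LAPTM5, a lysosomal protein of blood cells, had a mean level of 7.86 in co-culture -GFs and 11.97 in co-culture with FGF2 and was undetected in PA6 of both media. The largest negative differences were those of HOXD4 (-2.97), ONECUT2 (-2.75), 2610034M16RIK (-2.71), HOXB1 (-2.68) and HOXD3 (-2.67). HOXB1, a hindbrain gene, had a mean level of 9.98 in co-culture -GFs and 7.14 with FGF2 and was undetected in PA6 of both media.

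With BMP4 the largest positive differences were those of TRP63 (5.14), HOXC6 (4.92), GJB2 (4.83), LOC212386 (4.59) and LOC544808 (4.43). TRP63, a factor of stratified epithelium, was undetected in co-culture -GFs and had a mean level of 10.88 in co-culture with BMP4, with 7.54 and 7.40 in PA6 (adjusted p of the difference 3.84e-05). The largest negative differences were those of CLSTN3 (-3.75), PPP1R1A (-3.59), NKX6-2 (-3.23), KIF5A (-3.11) and SVOP (-3.05). For each, the mean level with BMP4 was lower in co-culture and higher in PA6 than without a factor. In PA6 the mean went from 6.31 to 9.05 for CLSTN3, 5.85 to 8.26 for PPP1R1A, 6.45 to 8.02 for NKX6-2 and 5.67 to 6.99 for SVOP. In co-culture it went from 9.88 to 8.86, 13.06 to 11.89, 8.79 to 7.12 and 11.96 to 10.23. KIF5A, a neuronal kinesin, had a mean level of 9.23 in co-culture -GFs and 7.35 with BMP4, and in PA6 it was undetected without a factor and had a mean level of 7.09 with BMP4 (detected on 2 of the 3 arrays).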

How the results depend on the processing

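Groups of 2 and 3 arrays limit the precision, and changes of dim probes are compressed by background. Without a minimum fold change 9800 genes were called, 4965 higher and 4835 lower. Among genes detected on all 5 arrays 3792 were called, 1572 of them higher. At a detection p under 0.01, 881 genes were detected in co-culture alone and 306 in PA6 alone. Scaling by the median moved the median of all genes from 0.032 to -0.080 and left 522 differences with FGF2. It also turned the medians of cell cycle inhibitors (-0.034), Hedgehog genes (-0.11) and reference genes (-0.050).

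Leaving out one array at a time gave 6388 to 7006 called genes, 3211 to 3698 higher and 3087 to 3315 lower, 763 to 1102 differences with FGF2 and 278 to 670 with BMP4. The lowest of these, 278, was without co-culture BMP4 replicate 1. List medians ran from -0.29 (without PA6 replicate 1) to 0.64 for glial genes, from -1.22 to 0.15 for neural crest factors, from -1.60 to 0.22 for mesoderm and endoderm genes, from -1.45 to 0.12 for bone and cartilage genes and from -0.94 to 0.14 for WNT genes. Neural crest was positive without co-culture replicate 1 (0.15), mesoderm and endoderm without replicate 1 (0.22) or 2 (0.17), and bone (0.12) and WNT (0.14) without replicate 2.

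At a detection p under 0.01 the median was -0.42 for glial genes and -0.42 for blood genes. Among genes detected on all 5 arrays it was negative for neural progenitor (-0.11), glial (-0.96), pluripotency (-1.85), epithelial (-1.72), endothelial (-1.81), blood (-0.42), imprinted (-0.052), FGF (-0.30), Notch (-0.44) and Hedgehog genes (-0.34), a setting that removes by construction the genes detected in co-culture alone.

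The labels number replicates, and the main fit did not pair the samples by these numbers. Deviations of same-numbered arrays of the groups compared correlated at 0.044 and 0.014. These pairs are too few to decide on pairing, since the co-culture deviations mirror each other. Over all groups the median correlation was 0.070 for arrays of the same number and -0.029 for others. It was 0.080 within a run of columns and -0.042 between runs. With the replicate block 6433 genes were called, 1028 differences with FGF2 and 541 with BMP4, and the glial median was -0.16. Blocking on column runs, a choice made after seeing the data, called 6438 genes. For the other reversals the cause was not tested. Of 298 genes followed singly over up to 28 settings, 270 kept their side of the threshold and none reversed.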

Other observations

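Families that the lists did not hold were looked at after their values were seen and carry no test. Of 43 replication histone genes 28 rose and 4 fell, and these are near-identical copies. Of 24 kinesins, the motors of spindle and axon, 14 rose and 3 fell, and of 27 collagens 4 rose and 16 fell. Mitochondrial ribosomal proteins rose in 23 of 66 cases and fell in 1 (median 0.72), while those of the cytosolic ribosome rose in 5 of 56 and fell in 1 (median 0.038). Proteasome subunits rose in 10 of 32 cases and fell in 4.

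The order of columns in the deposited table forms runs, and co-culture replicate 1 lies in a run with PA6 replicate 1 and co-culture replicate 2 with PA6 replicate 3. Of the 6430 called genes 5344 (83.1%) were over 2-fold in both runs, a description alone, since the same arrays made the calls.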
